A study of Mus musculus with 18 samples.

Results

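Dmpk, Dmwd, Fxyd2, Bex1 and Ednrb are the 5 genes, of 16314 gene symbols in the count table, that were selected on their knockout values, a very large log2 fold change of Prep-/- over Prep+/- in at least 1 state of the macrophage. Dmpk and Dmwd were lower in Prep-/- cells in all 3 states. Fxyd2 was higher in M0 and M2, Bex1 was higher in M2, and Ednrb was higher in M0 and M1 and lower in M2. Since the genes were chosen by these values, the values are given below as a description with no p-value. All 5 were among the 12021 genes with enough reads to be tested.

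Prep encodes prolyl endopeptidase, an enzyme that cuts small peptides after proline. Bone marrow-derived macrophages (BMDMs) came from Prep-/- mice and from Prep+/- littermates on the C57BL6/J background, so that the controls carried 1 knockout allele and no wild-type group was compared. Marrow of the femora was cultured for 7 days with 50 ng/ml M-CSF, the growth factor that drives macrophage differentiation, in both genotypes and all 3 states. M0 cells received nothing more, M1 cells were given LPS (50 ng/ml) and M2 cells IL-4 with IL-13 (20 ng/ml of each), both for 24 h. Each of the 6 groups held 3 biological replicates, which made 18 libraries with totals of 19068237 to 22598279 counts. Prep itself lay between 551 and 900 normalised counts in the 9 control libraries and between 31.3 and 68.1 in the 9 knockout libraries, as the labels imply. The 8 macrophage markers summed to between 10000 and 48200 CPM (counts scaled to the depth of the library) in every library, and the 4 measured Y-linked genes to between 136 and 187 CPM. The macrophage sum did not overlap between the genotypes in any state, with 19000 to 22400 CPM in the controls and 30400 to 48200 in the knockouts in M0, 45800 to 47200 and 31000 to 37000 in M1, and 10000 to 12200 and 13900 to 19600 in M2. Lyz2 alone made up most of the sum, with 34400 to 36600 CPM in the controls and 20400 to 26200 in the knockouts in M1. Single markers did not all follow the sum. In M1, Cd68 (855 to 1010 in the controls, 1100 to 1480 in the knockouts) and Mertk (27.9 to 45.7 and 73.4 to 102) were higher in the knockouts. Cd14 was lower there (1010 to 1340 and 557 to 686), and the other markers overlapped. The part of the sum and of these markers in the results below was not tested. Replicate 3 of Prep-/- M0 and replicate 3 of Prep-/- M2 stood apart from the other libraries of their groups, at 107.1 to 114.5 and 104.6 to 105.4 times the sampling noise (chi-square per degree of freedom), against 9.26 to 46.3 for every other pair of replicates. Without them, the log2 fold changes in those states were -6.38 and -6.21 for Dmpk (M0 and M2), -3.32 and -3.80 for Dmwd, 5.39 and 2.92 for Fxyd2, and 1.89 and -0.63 for Ednrb, and 3.52 for Bex1 in M2. Bulk RNA-seq cannot tell fewer cells of a type apart from less RNA per cell.

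The 5 genes come from 4 places in the genome and from unrelated families. Dmpk encodes the myotonic dystrophy protein kinase, a serine/threonine kinase known from skeletal and heart muscle and related to the Cdc42-binding kinases. Dmwd, its upstream neighbour, encodes a WD-repeat protein of the same family as WDR20, which binds the deubiquitinases USP12 and USP46. Fxyd2 encodes the gamma subunit of the sodium pump (Na,K-ATPase), a small membrane protein best known from the kidney tubule, where it tunes how the pump handles its ions. Bex1 encodes a small, largely unfolded adaptor protein first described in the brain, 1 of a cluster of related Bex and Tceal genes on the X chromosome. Ednrb encodes the endothelin receptor type B, a G protein-coupled receptor that binds the vasoactive peptides endothelin 1, 2 and 3 and is known from endothelium, melanocytes and the enteric nervous system. In GRCm39, Dmwd spans chr7:18809997-18816706 and Dmpk chr7:18817406-18827746, both on the plus strand with 699 bases between them. Fxyd2 spans chr9:45310967-45322004 on the plus strand, Bex1 chrX:135114720-135116861 on the minus strand and Ednrb chr14:104052053-104081900 on the minus strand. Prep lies elsewhere, on chromosome 10.

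Among all 12021 genes tested, Dmpk ranked 1 in M2 and 2 in M0 when genes were ordered from the most negative knockout change. In M0, the Prep+/- libraries held 2544, 3610 and 3335 normalised counts of Dmpk and the Prep-/- libraries 27.1, 47.8 and 51.8. In M2, the controls held 1131, 1356 and 1070 and the knockouts 9.58, 22.2 and 10.1. In M1, the controls held 1417, 1425 and 1356 and the knockouts 206, 309 and 324. The genotypes were far apart in every state, and the knockout cells kept most Dmpk after LPS. A normalised count is the number of reads of a gene after scaling each library by its TMM factor to a common library size. The log2 fold change of Prep-/- over Prep+/- came to -6.22 ± 0.26 (SE, 3 libraries per group) for M0, -2.32 ± 0.21 for M1 and -6.40 ± 0.29 for M2. In linear terms the M0 and M2 controls were 74.4-fold and 84.3-fold above the knockouts. Gm71867, a non-coding gene on the opposite strand, overlaps Dmpk, and whether the counting used strand is not stated in the sources used here.

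Dmwd was lower in the same 3 comparisons and by less. In M0, it held 423, 745 and 785 normalised counts in the controls and 61.2, 69.1 and 75.2 in the knockouts. In M1, the controls held 1699, 1919 and 2039 and the knockouts 626, 894 and 1067. In M2, the controls held 249.9, 189 and 276 and the knockouts 21.3, 12.7 and 47.7. No knockout library reached the lowest control library in any state. The log2 fold changes of -3.25 ± 0.31 (M0), -1.13 ± 0.27 (M1) and -3.11 ± 0.35 (M2) ranked 63, 572 and 37 among the falls of the 12021 genes. A differentially expressed gene (DEG) differs between the genotypes by more than 1.5-fold at an adjusted p below 0.05. Across all genes tested, DEGs made up 32.6% (M0), 22.5% (M1) and 16.2% (M2). Of the 15 pairs of a gene and a state, 12 met that rule, which is a result of how the genes were chosen. With 1 library left out, the M2 change of Dmwd ranged from -3.80 (without replicate 3 of Prep-/- M2) to -2.77, and that of Dmpk from -6.88 (without replicate 2 of Prep-/- M2) to -6.19.

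**Figure D1:**
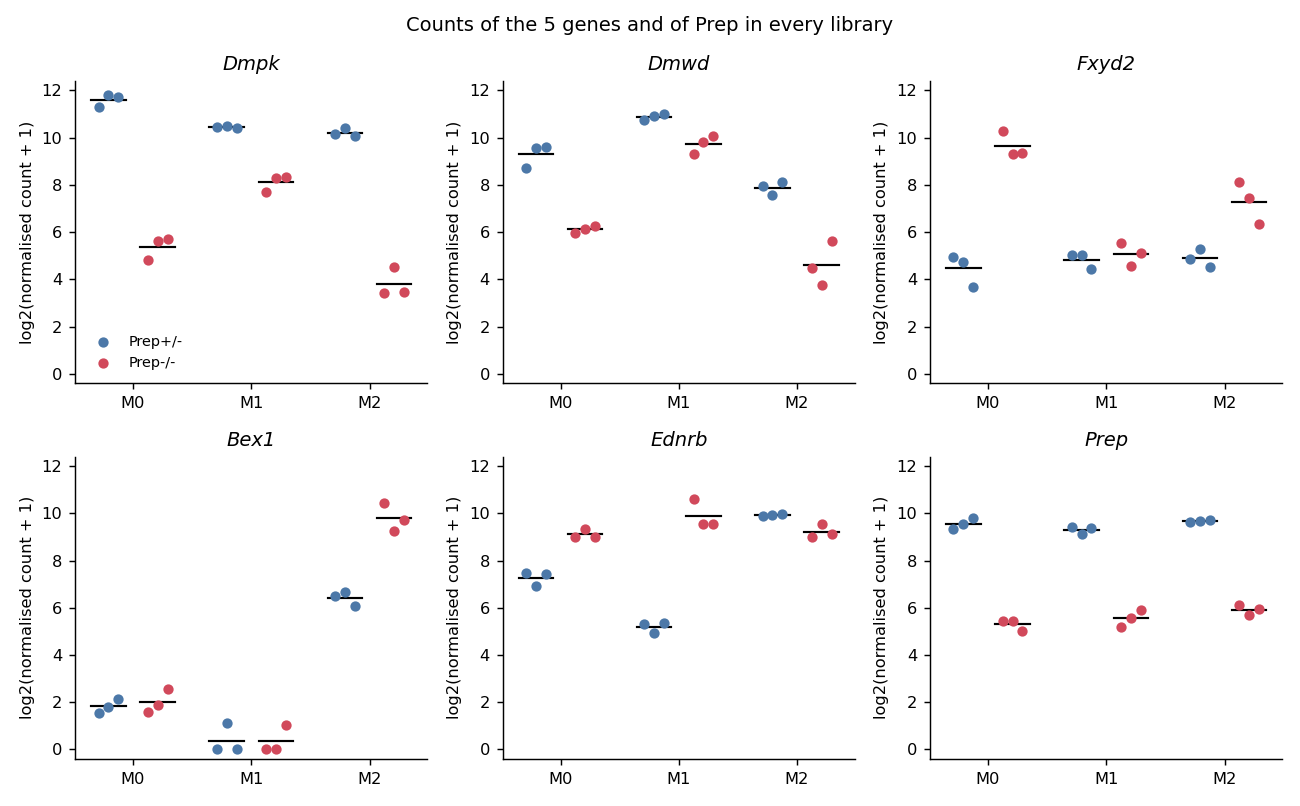
Each point is 1 library, plotted as log2 of the normalised count plus 1 on the vertical axis, with Prep+/- in blue and Prep-/- in red, 3 libraries per group, and a black line at the group mean of the plotted values. Dmpk and Dmwd lie lower in red in all 3 states, Fxyd2 lies higher in red in M0 and M2, Bex1 leaves the floor in M2 alone, and Ednrb is higher in red in M0 and M1 and lower in M2.

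The ratio of the pair also moved. For each Dmpk read, the control libraries held 0.203 ± 0.035 (SD, n = 3) Dmwd reads in M0, 1.35 ± 0.15 after LPS and 0.206 ± 0.060 in the M2 state. The knockout libraries held 1.72 ± 0.47, 3.08 ± 0.20 and 2.50 ± 2.08. LPS thus went with more Dmwd per Dmpk in both genotypes, and the ratio was higher in every knockout library than in every control library of the same state. The wide spread in Prep-/- M2, from 0.571 to 4.70, rests on libraries with 9, 21 and 10 Dmpk reads against 20, 12 and 47 Dmwd reads. Divided by the length of the main transcript, Dmpk stood at 48.6 ± 8.5 (SD, n = 3) CPM per kb in Prep+/- M0, above Dmwd at 11.9 ± 3.6, and the order was turned in Prep+/- M1, with 21.5 ± 0.59 for Dmpk and 34.5 ± 3.2 for Dmwd.

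**Figure D2:**
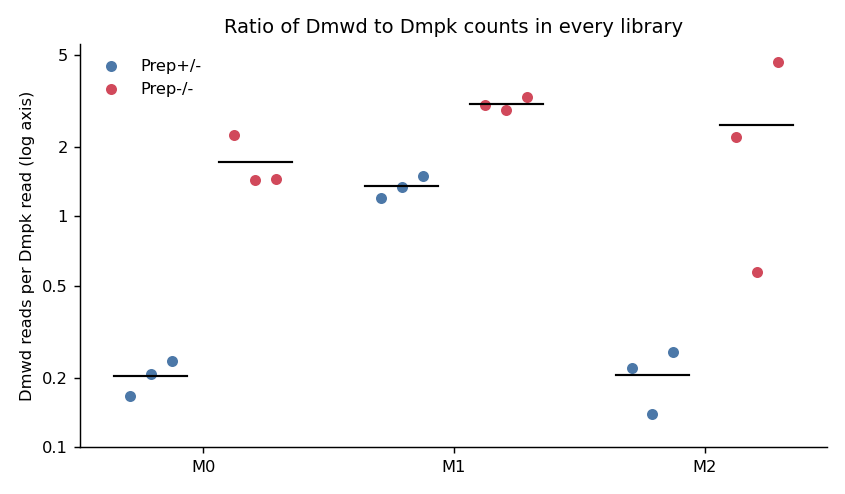
Each point is the number of Dmwd reads per Dmpk read in 1 library, on a log axis, by state and genotype (3 libraries per group, black line at the mean). Controls in M0 and M2 lie between 0.139 and 0.257, controls in M1 between 1.199 and 1.504, and all knockout libraries between 0.571 and 4.70.

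The pair has separate start sites, and the stretch before each is shown because both genes were lower together. Each sequence holds the 250 bases before the RefSeq start (RefSeq promoters, table build GRCm38.p6), read 5′ to 3′ on the gene's own strand. Each matched GRCm39 once and without a mismatch, at chr7:18809875-18810124 for Dmwd and at chr7:18817533-18817782 for Dmpk. The RefSeq starts lie 128 and 377 bases inside the GENCODE gene bodies given above. Capitals mark the GC box, GGGCGG on either strand.
Dmwd: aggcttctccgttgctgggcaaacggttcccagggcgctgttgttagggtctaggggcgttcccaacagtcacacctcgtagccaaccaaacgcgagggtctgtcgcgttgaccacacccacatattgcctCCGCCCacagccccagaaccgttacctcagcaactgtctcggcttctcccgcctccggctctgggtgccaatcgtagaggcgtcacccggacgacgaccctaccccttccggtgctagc
Dmpk: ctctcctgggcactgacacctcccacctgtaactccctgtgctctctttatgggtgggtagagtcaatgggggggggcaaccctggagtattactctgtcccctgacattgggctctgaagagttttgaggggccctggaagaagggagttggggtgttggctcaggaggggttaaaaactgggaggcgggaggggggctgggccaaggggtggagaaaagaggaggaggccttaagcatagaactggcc
The Dmwd stretch holds 1 GC box, which starts 119 bases before the RefSeq start, and the Dmpk stretch holds none. GC boxes stood in 53.5% of 12821 RefSeq promoter stretches of this length. Of these bases, 62.4% were G or C for Dmwd and 58.4% for Dmpk, against a median of 58.8% over all the stretches. GAGGAA, 1 form of the motif of the PU.1/ETS family of transcription factors, was searched on both strands and was in neither of them. Of all stretches, 22.6% held it. Other forms of an ETS site were not searched, so their absence is not stated. Neither held a STAT6 site (TTC and GAA with 4 bases between, in 4.74% of all). No motif searched shares its full length with another. These are letter matches in short windows and say nothing of binding.

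No tested gene around Dmpk and Dmwd was lower by as much as these 2 in M0 or M2. Six5, a homeobox gene whose annotated body begins 439 bases after Dmpk ends, had means of 28.6 normalised counts in Prep+/- M0 and 31.0 in Prep-/- M0. After LPS the means were 49.0 and 63.9, and after IL-4 with IL-13 they were 17.2 and 18.1. Its log2 fold changes were 0.12 ± 0.27, 0.38 ± 0.26 and 0.07 ± 0.30, and none passed (adjusted p = 0.746, 0.256 and 0.898, edgeR). Sympk, which encodes the scaffold symplekin of the mRNA 3′ end machinery and lies 21448 bases to the left of Dmwd, passed on p but not on fold in M0 (log2 fold change -0.51 ± 0.11, adjusted p = 0.00118) and was at 0.07 ± 0.11 in M1 and -0.19 ± 0.11 in M2. Fbxo46, an F-box gene 26025 bases to the right of Dmpk, stood at 0.26 ± 0.11, -0.13 ± 0.11 and 0.43 ± 0.11. Qpctl, which encodes a glutaminyl cyclase 44591 bases to the right, fell in M0 and M2 (-0.71 ± 0.11 and -0.73 ± 0.11, adjusted p = 0.000101 and 0.000237). Rsph6a and Meiosin, which lie within 50 kb, had almost no reads and were not tested.

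Within 200 kb of Dmpk or Dmwd, 15 neighbours were tested. Of these, 3 were DEGs in M0, 4 in M1 and 2 in M2, or 20%, 26.7% and 13.3%, against 32.6%, 22.5% and 16.2% of all genes. Pglyrp1, which encodes a peptidoglycan recognition protein 185613 bases to the left, rose in M0 (2.49 ± 0.51, adjusted p = 0.000702) and fell in M1 (-1.37 ± 0.51, adjusted p = 0.043). Vasp, an actin-binding protein gene 161023 bases to the right, rose in M0 (0.84 ± 0.15) and fell in M1 (-0.60 ± 0.15). The knockout change differed between M1 and M0 by -3.86 ± 0.72 for Pglyrp1 (adjusted p = 0.00122, edgeR) and by -1.43 ± 0.21 for Vasp (adjusted p = 0.000198, edgeR). Both were tested because their changes had opposite directions, so that passing is no independent result. The share over all genes, which were not chosen in this way, was 24.6%. Pglyrp1 had few reads, 4 to 6 in the controls and 16 to 33 in the knockouts in M0, and 14 to 17 and 5 to 8 in M1. Snrpd2, which encodes a core protein of the spliceosome, and Gipr, the receptor of an incretin hormone, fell in M1 (-1.05 ± 0.24 and -1.30 ± 0.37). Mypop, a Myb-like gene, fell in M2 (-1.49 ± 0.45, adjusted p = 0.0221). The M2 libraries of the same replicate number were taken as paired, from correlations alone. With the number as a block, Mypop missed the threshold (adjusted p = 0.0512, edgeR). The Pglyrp1 call in M1 was lost under 10 of 24 alternative settings.

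**Figure D3:**
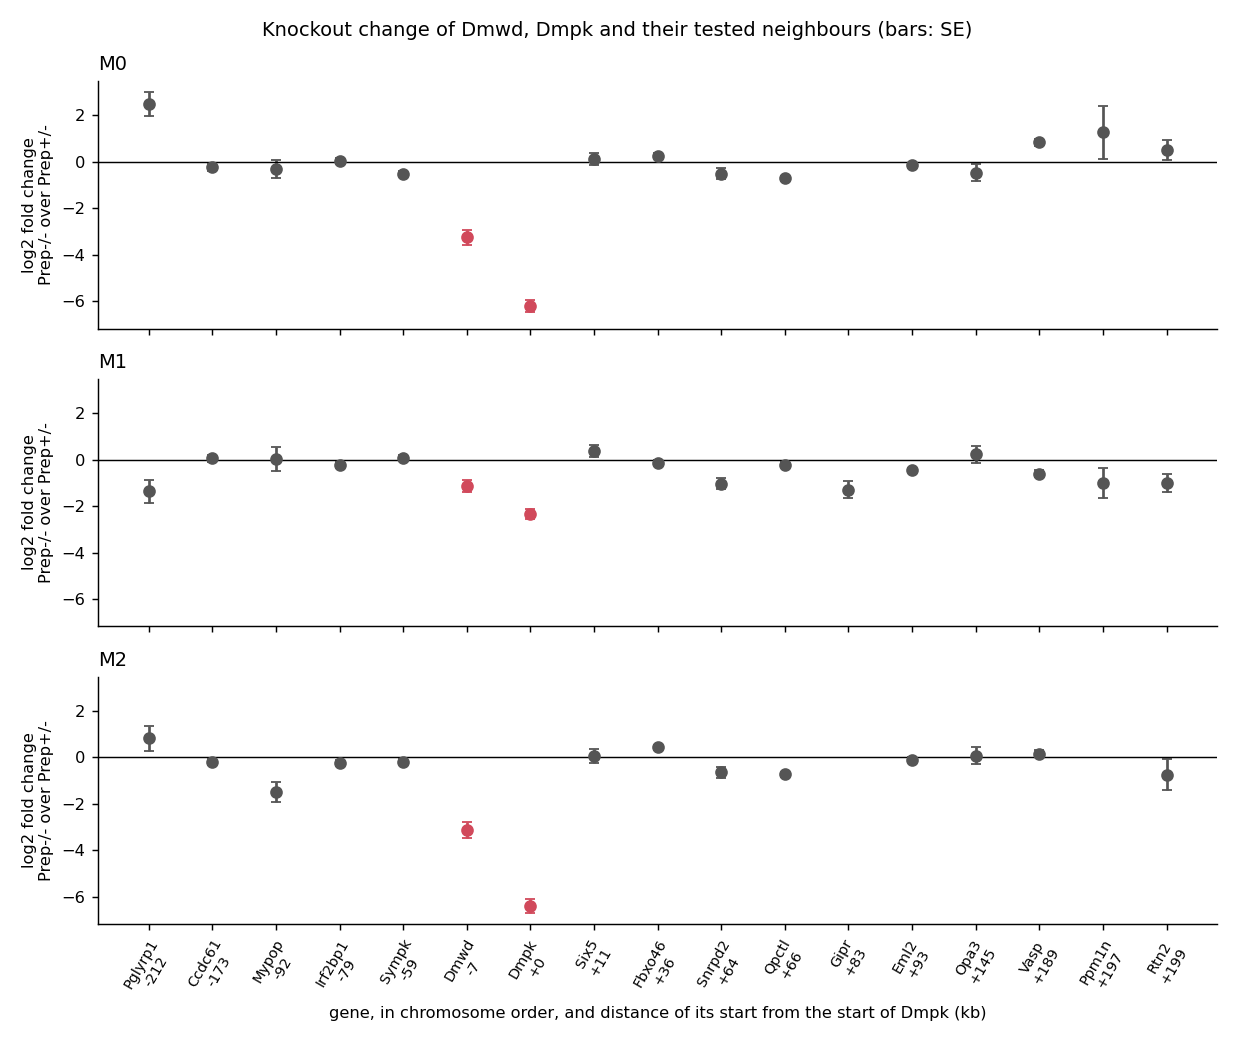
Points are the log2 fold change of Prep-/- over Prep+/- (bars, SE, 3 libraries per group) for Dmwd and Dmpk in red and their 15 tested neighbours in grey, in chromosome order, 1 panel per state, with the distance of each start from the Dmpk start in kb. Gipr in M0 and M2 and Ppm1n in M2, where 1 or both genotypes had no reads, are not drawn. Dmwd and Dmpk lie at -3.25 and -6.22 in M0, while Six5 beside them lies at 0.12.

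Fxyd2 was low in the controls in every state and high in unstimulated knockout cells. In M0, it held 29.9, 25.9 and 11.9 normalised counts in the controls and 1253, 638 and 659 in the knockouts. In M2, the controls held 28.0, 38.2 and 21.7 and the knockouts 275, 172 and 80.1. In M1, the controls held 31.9, 32.1 and 20.5 and the knockouts 45.1, 22.4 and 33.4. The genotypes overlapped in M1 and were apart in M0 and M2. The log2 fold changes were 5.24 ± 0.46 (M0), 0.25 ± 0.50 (M1) and 2.57 ± 0.43 (M2), which is a 37.7-fold, a 1.18-fold and a 5.96-fold difference. The rise in M0 ranked 7 among the rises of the 12021 genes. It was the largest of 9536 genes with a mean of at least 5 CPM over both genotypes. Fxyd2 passed that cut through its knockout libraries, with 0.561 to 1.41 CPM in the controls. The measured markers of kidney epithelium, the tissue best known for Fxyd2, summed to between 0 and 0.102 CPM over the 18 libraries. Gm68814, a non-coding gene on the opposite strand, overlaps Fxyd2, and the sources used here do not say whether the counting used strand.

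Around Fxyd2, Tmprss4 and Il10ra were the neighbours within 200 kb with enough reads. Both were DEGs and higher in Prep-/- cells in M0 and M2, where 15.4% and 6.37% of all genes were. A share over so few genes is not read as a result. Tmprss4 encodes a membrane serine protease and lies 195577 bases to the left. Its library counts in M0 were 3, 2 and 5 in the controls and 69, 28 and 24 in the knockouts, and the log2 fold change was 3.68 ± 0.56 in M0 (adjusted p = 5.9e-05), 1.41 ± 0.61 in M1 (adjusted p = 0.0737) and 3.85 ± 0.88 in M2 (adjusted p = 0.00267). Il10ra encodes the ligand-binding chain of the IL-10 receptor and lies 130404 bases to the left. Its mean rose from 2213 to 7921 normalised counts in M0 (1.84 ± 0.22, adjusted p = 1.01e-05). In M1 the means were 3187 and 4443, without overlap (0.48 ± 0.22, adjusted p = 0.0964). In M2 the means were 1424 and 2194 with overlapping libraries (0.62 ± 0.22, adjusted p = 0.0487), a call that was lost under 18 of 24 alternative settings, the replicate block among them (0.57, under the fold criterion). Fxyd6, a gene of the same family whose body ends 3510 bases before Fxyd2, and Dscaml1, 15922 bases to the right, had almost no reads and were not tested.

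Of 13 listed genes for the sodium pump that Fxyd2 joins, 4 had enough reads. Atp1b3, which encodes a beta subunit, rose in M2 (0.78 ± 0.11, adjusted p = 0.000158), and its 0.34 ± 0.11 in M0 stayed under the fold criterion. The other member of the Fxyd family with enough reads, Fxyd5, was not a DEG in any state. In M1, where Fxyd2 overlapped between the genotypes, 0 of the 4 genes passed, against 22.5% of all genes.

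Bex1 was read almost only after IL-4 and IL-13. In M2, the controls held 90.2, 101 and 66.1 normalised counts and the knockouts 1376, 604 and 848. Every knockout library was above every control library, and the log2 fold change was 3.45 ± 0.29, or 11.0-fold. In M0, the library counts were 2, 3 and 4 in the controls and 2, 3 and 5 in the knockouts, and the groups overlapped (0.26 ± 0.77). In M1, they were 0, 1 and 0 in the controls and 0, 0 and 1 in the knockouts. That is at or under the floor of 3 counts per library in both genotypes, so no fold is given, and a difference was not detectable at this depth. Divided by transcript length, Bex1 in Prep-/- M2 reached 47.0 ± 19.7 (SD, n = 3) CPM per kb, near the 48.6 ± 8.5 of Dmpk in Prep+/- M0.

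The stretch before Bex1 is shown because it is the 1 among the RefSeq promoters of the 5 genes with more than 1 match. It is the 250 bases before the RefSeq start, on the minus strand, at chrX:135116263-135116512 in GRCm39, with GC boxes in capitals. It lies within the GENCODE gene body given above, and the RefSeq start is 599 bases inside that body.
Bex1: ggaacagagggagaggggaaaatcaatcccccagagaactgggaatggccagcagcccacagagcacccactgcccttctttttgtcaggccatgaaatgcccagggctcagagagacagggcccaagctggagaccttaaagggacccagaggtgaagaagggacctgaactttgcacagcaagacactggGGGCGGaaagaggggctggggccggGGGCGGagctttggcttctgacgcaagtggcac
The GC boxes start 58 and 33 bases before the RefSeq start. No STAT6 site was found in it, nor the letters GAGGAA. Ednrb had 0 GC boxes and none of the other motifs searched in its stretch, and Fxyd2 was not matched to a promoter.

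Bex1 has near copies. A stretch of 456 bases of its transcripts is 91.4% identical to Bex2, 214 bases are 98.1% identical to Bex4, and 336 bases are identical to Tceal7, which overlaps it on the opposite strand. The counting could therefore have split or shared reads among them. In the Prep-/- M2 libraries, where Bex1 had 1292, 571 and 836 reads, Tceal7 had 11, 0 and 4, Bex4 had 1, 0 and 6, and Bex2 had 0, 0 and 1. Of the tested neighbours of Bex1, Bex3, an adaptor of the same family 38163 bases to the right, fell in M0 (-0.60 ± 0.19, adjusted p = 0.0155), and its 0.55 ± 0.20 in M1 stayed under the fold criterion. Bex3, like Pglyrp1 and Vasp, was tested because its changes had opposite directions. The difference between those states was 1.16 ± 0.28 (adjusted p = 0.00704, edgeR). Tceal9, 28926 bases to the right, rose in M2 from 2965 to 5738 (0.95 ± 0.23, adjusted p = 0.00684), as Bex1 did. Tceal8, 41629 bases to the left, fell in M1 (-0.61 ± 0.17, adjusted p = 0.0114). Tceal5, 9824 bases to the left, and Tceal7 had too few reads to be tested. Ngfr, the neurotrophin receptor that Bex1 binds, was not among the rows used here.

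Ednrb was the member whose knockout change turned direction with the state. In M0, it held 178, 119 and 171 normalised counts in the controls and 509.9, 651 and 506 in the knockouts. In M1, the controls held 38.7, 29.7 and 39.8 and the knockouts 1581, 744 and 745. In M2, the controls held 947, 974 and 1017 and the knockouts 519, 743 and 560.0. The genotypes did not overlap in any state, with the knockouts above in M0 and M1 and below in M2. The log2 fold changes were 1.83 ± 0.26 (M0), 4.82 ± 0.31 (M1) and -0.69 ± 0.24 (M2), or 3.56-fold and 28.3-fold higher and 1.61-fold lower. The rise in M1 ranked 4 among the rises of the 12021 genes. It was the largest of 9326 genes with a mean of at least 5 CPM over both genotypes. Ednrb passed that cut through its knockout libraries, with 1.41 to 1.88 CPM in the controls. The fall in M2 is small beside the rise in M1, and the fall no longer met the DEG rule in 9 of the 18 fits that left out 1 library.

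**Figure D4:**
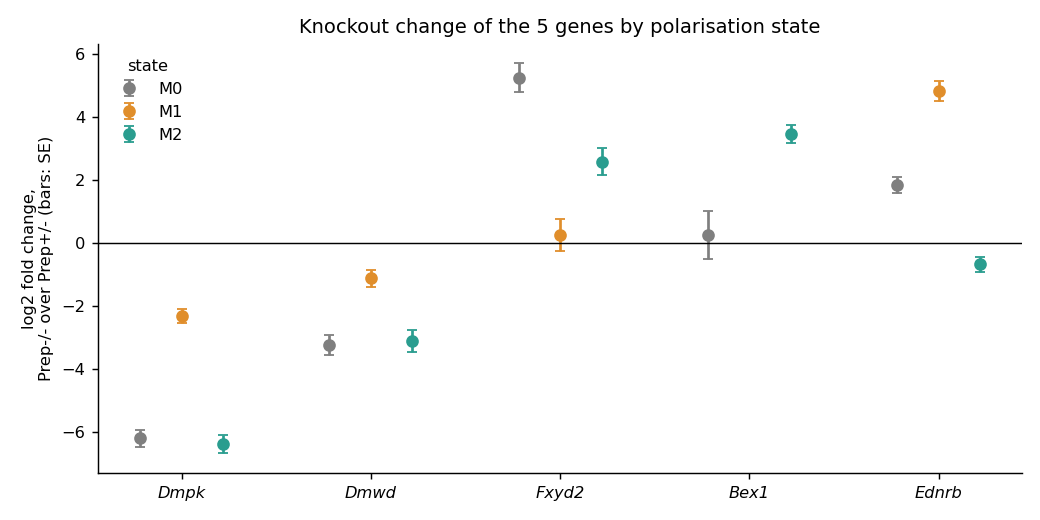
Points are the log2 fold change of Prep-/- over Prep+/- for each of the 5 genes in M0, M1 and M2, with bars of 1 SE (3 libraries per group). Bex1 in M1, with no more than 1 read per library, is left out. Dmpk and Dmwd lie below 0 in all 3 states, and Ednrb lies at 1.83, 4.82 and -0.69.

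Ednrb is known from endothelium, and the endothelial markers were therefore read in the same libraries. Of 7 listed markers, 6 had a row. Their sum ranged over 32.7 to 36.1 CPM in Prep+/- M0, 17 to 22.1 in M1 and 118 to 167 in M2, and over 26.8 to 38.6 in Prep-/- M0, 27.2 to 48.5 in M1 and 252 to 333 in M2. Vwf, the clotting protein of endothelium and platelets, made up most of the M2 sums, with 104 to 152 CPM in the controls and 247 to 326 in the knockouts. In M1 the sum was higher in the knockouts than in the controls without overlap, as Ednrb was, and in the controls both were higher in M2 than in M0. In M0 the sum overlapped between the genotypes, while Ednrb was higher in the knockouts without overlap. In the knockouts the sum was higher in M2 than in M0, while the Ednrb libraries of those states overlapped. In M2 the sum was higher in the knockouts, as Bex1 was, while Ednrb was lower. Kdr, a receptor for vascular growth factors, lay between 7.14 and 9.1 CPM in Prep+/- M1 and between 10.2 and 26.2 in Prep-/- M1. Vwf was likewise higher in M1, at 4.33 to 6.78 CPM in the controls and 11.5 to 18.3 in the knockouts. Other markers went the other way without overlap. Pecam1, an adhesion molecule that macrophages also carry, was lower in the knockouts in M1 (controls 3.51 to 4.95 CPM, knockouts 2.04 to 3.28) and in M2 (8.18 to 11.8 and 3.59 to 7.2). Cdh5 was lower in M1 (1.29 to 1.8 and 0.504 to 0.987) and Kdr in M2 (2.6 to 3.08 and 0.7 to 1.51). In M0, Kdr (2.78 to 6.29 and 1.21 to 2.23) and Cdh5 (0.319 to 0.601 and 0.126 to 0.237) were lower in the knockouts. Pecam1 was higher there in M0 (0.434 to 0.501 and 1.29 to 3.41). The highest values of Tie1 and Tek were 0.19 and 0.102. The part of these markers in the results was not tested. Markers of neural and Schwann cells summed to between 2.96 and 13.7 CPM and muscle markers, of which 4 of 7 had a row, to between 1.31 and 8.71.

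The partners of Ednrb in the endothelin system included 1 ligand with enough reads. Edn1, which encodes endothelin 1, had means of 0.322 normalised counts in Prep+/- M0 and 0.335 in Prep-/- M0. After LPS the means were 83.6 and 33.5, and after IL-4 with IL-13 they were 87.1 and 141.5. It was not a DEG in any state (adjusted p = 0.989, 0.235 and 0.545, edgeR). In M1 the genotypes did not overlap, with 60.4, 92.8 and 97.5 normalised counts in the controls and 28.6, 33.1 and 38.8 in the knockouts (-1.31 ± 0.85). In M2 single libraries were far apart, from 24.3 to 370 in Prep-/- cells. Averaged over the genotypes, Edn1 was higher in M1 and in M2 than in M0 (adjusted p = 6.26e-05 and 1.61e-05), on M0 groups with 1 read each. The ligands Edn2 and Edn3 and the type A receptor Ednra had too few reads to be tested. Ece1, the enzyme that releases mature endothelin, fell in M1 (-0.96 ± 0.21, adjusted p = 0.00283). Of the phospholipases below the receptor, Plcb3 rose in M1 (0.63 ± 0.13, adjusted p = 0.00163) and Plcb4 fell in M0 (-1.91 ± 0.45, adjusted p = 0.00213). Of the 10 tested genes of the list, 1, 2 and 0 were DEGs in M0, M1 and M2, or 10%, 20% and 0%, below the 32.6%, 22.5% and 16.2% of all genes. The 1 neighbour of Ednrb within 200 kb that had a row, Slain1, was not tested.

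Among the relatives of Dmpk, Mbnl3, 1 of the muscleblind splicing factors that the expanded DMPK transcript binds in human disease, fell in all 3 states (-1.54 ± 0.23, -1.01 ± 0.31 and -1.56 ± 0.24, adjusted p = 5.49e-05, 0.0191 and 0.000199). Cit, a kinase of cell division, fell in M0 and M2 (-1.54 ± 0.37 and -1.44 ± 0.38). Cdc42bpa, a Cdc42-binding kinase, fell in M0 (-1.81 ± 0.31, adjusted p = 0.000188), and its fall in M2 (-0.88 ± 0.31, adjusted p = 0.0471) was lost under 14 of 24 alternative settings. Cdc42bpg fell in M2 (-0.86 ± 0.25, adjusted p = 0.0173). In all, 3, 1 and 4 of the 15 tested genes on the list for Dmpk were DEGs, all of them lower. That is 20%, 6.67% and 26.7%, where 32.6%, 22.5% and 16.2% of all genes were DEGs in either direction. The list was thus below the table in M0 and M1 and above it in M2, which was not tested. DEGs that were lower made up 17.2%, 10.2% and 9.82% of all genes. Another list held genes around Dmwd, USP12 and USP46 and was not limited to partners of Dmwd. Among its 5 tested genes, Usp1 fell in M0 and M2 (-1.47 ± 0.13 and -0.77 ± 0.13), Usp46 fell in M0 (-0.82 ± 0.30, adjusted p = 0.0313) and Usp12 rose in M1 (0.62 ± 0.21, adjusted p = 0.0268).

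As whole lists, neighbours and relatives had shares of DEGs near those of the table as a whole in M0 and M1 or below them. In M2 their shares were somewhat above the 16.2% of all genes in the fit without a replicate block, which was not tested. For the neighbours this did not hold with the block, as given below. Of 20 tested neighbours, 6 were DEGs in M0, 5 in M1 and 5 in M2, or 30%, 25% and 25%. Of 39 tested relatives, 9, 5 and 8 were DEGs, or 23.1%, 12.8% and 20.5%. Six5, Bex3, Tceal8 and Tceal9 are on both lists. The calls of Bex3 in M0, Tceal8 in M1 and Tceal9 in M2 therefore count in each, and the lists are not independent. By direction, 4 neighbours rose and 2 fell in M0, 0 rose and 5 fell in M1, and 3 rose and 2 fell in M2. For the relatives, the same counts were 1 and 8, 2 and 3, and 3 and 5. Over all genes, 15.4% rose and 17.2% fell in M0, 12.3% rose and 10.2% fell in M1, and 6.37% rose and 9.82% fell in M2. The median log2 fold change was -0.12, -0.20 and 0.03 for the neighbours and -0.14, -0.07 and -6e-04 for the relatives, against 0.02, 0.04 and 0.03 for all genes. Without the libraries that stood apart, the counts were 7 neighbours and 8 relatives in M0 and 5 and 10 in M2. The M1 counts changed with single libraries. Without replicate 1 of Prep-/- M1 they were 1 neighbour and 1 relative, without replicate 2 of Prep+/- M1 they were 2 and 1, and without replicate 2 of Prep-/- M1 or replicate 3 of Prep+/- M1 there were 2 and 3 neighbours. In M2, 3 of the 20 neighbours were left with the replicate block, where 15.7% of all genes were DEGs. Likewise, 3 were left without replicate 2 or 3 of Prep+/- M2 or replicate 1 or 2 of Prep-/- M2.

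The second question was how stimulation moved the 5 genes. The change between states was fitted as the mean of both genotypes. This mean holds the libraries that chose the genes, so that a gene chosen for a knockout change in some states tends to differ between states on this scale, and it is no independent test of the 5. All 5 genes had an adjusted p under 0.05 in all 3 comparisons of states, from which nothing is read. Of all genes tested, 64.2% did for M1 minus M0, 45.7% for M2 minus M0 and 62.5% for M2 minus M1. The changes are therefore described within each genotype, with no p.

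After LPS, Dmpk was lower in the controls and higher in the knockouts. The log2 change from M0 to M1 was -1.18 ± 0.20 in Prep+/- and 2.72 ± 0.25 in Prep-/- cells, and the libraries of the 2 states did not overlap in either genotype. The mean of the genotypes, 0.77 ± 0.16, describes neither of them. From M0 to M2, the changes were of like size in both, -1.42 ± 0.20 and -1.60 ± 0.34 (mean -1.51 ± 0.20). From M1 to M2, the change was -0.24 ± 0.20 in the controls, whose libraries overlapped, and -4.31 ± 0.30 in the knockouts (mean -2.28 ± 0.18). The order of the 6 group means was Prep+/- M0, M1 and M2, then Prep-/- M1, M0 and M2, and M1 and M2 of the controls were the neighbours in that order that overlapped.

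Dmwd moved the same way in both genotypes. It was higher in M1 than in M0 (1.53 ± 0.27 in Prep+/-, 3.65 ± 0.32 in Prep-/-, mean 2.59 ± 0.21). It was lower in M2 than in M0 (-1.45 ± 0.28 and -1.32 ± 0.38, mean -1.39 ± 0.23). Its highest groups were thus M1 in each genotype and its lowest M2, and Prep-/- M1 overlapped with Prep+/- M0.

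Fxyd2 barely moved between states in the controls. The changes were 0.34 ± 0.51 from M0 to M1 and 0.39 ± 0.49 from M0 to M2, and the libraries overlapped in both. In the knockouts, Fxyd2 was lower after LPS (-4.66 ± 0.44) and after IL-4 with IL-13 (-2.27 ± 0.38). The 3 control groups and Prep-/- M1 overlapped in a row at the lower end of the order.

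Bex1 was far higher in M2 than in M0 in both genotypes. Over the 3 libraries of a group, 284 reads in Prep+/- M2 stood against 9 in M0, a ratio of 32.7 (95% counting interval 17 to 72.2). In Prep-/- cells, 2699 reads stood against 10, a ratio of 296 (161 to 618). Against M1, where each genotype had 1 read in all, the ratios were 215 (38.3 to 8530) and 2609 (468 to 103000). Between M0 and M1, 9 reads stood against 1 in the controls (ratio 6.59, interval 0.913 to 289) and 10 against 1 in the knockouts (8.81, 1.25 to 382), with at most 5 reads in a library. Bex1 passed the filter on low counts through its M2 libraries, and no change between M0 and M1 is read from these counts.

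After IL-4 and IL-13, Ednrb was higher than in M0 in the controls and at a like level in the knockouts. From M0 to M2 the change was 2.65 ± 0.26 in Prep+/- and 0.13 ± 0.24 in Prep-/- cells, whose libraries overlapped (mean 1.39 ± 0.18). LPS went with opposite changes, -2.11 ± 0.31 in the controls and 0.88 ± 0.24 in the knockouts, and the libraries did not overlap in either genotype (mean -0.62 ± 0.20). From M1 to M2 the change was 4.76 ± 0.31 in the controls and -0.75 ± 0.24 in the knockouts (mean 2.003 ± 0.19). Across the 3 states the control means ran from 36.1 to 979 normalised counts and the knockout means from 556 to 1023. Prep-/- M1 overlapped with Prep+/- M2 at the top of the order, and Prep-/- M2 with Prep-/- M0.

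**Figure D5:**
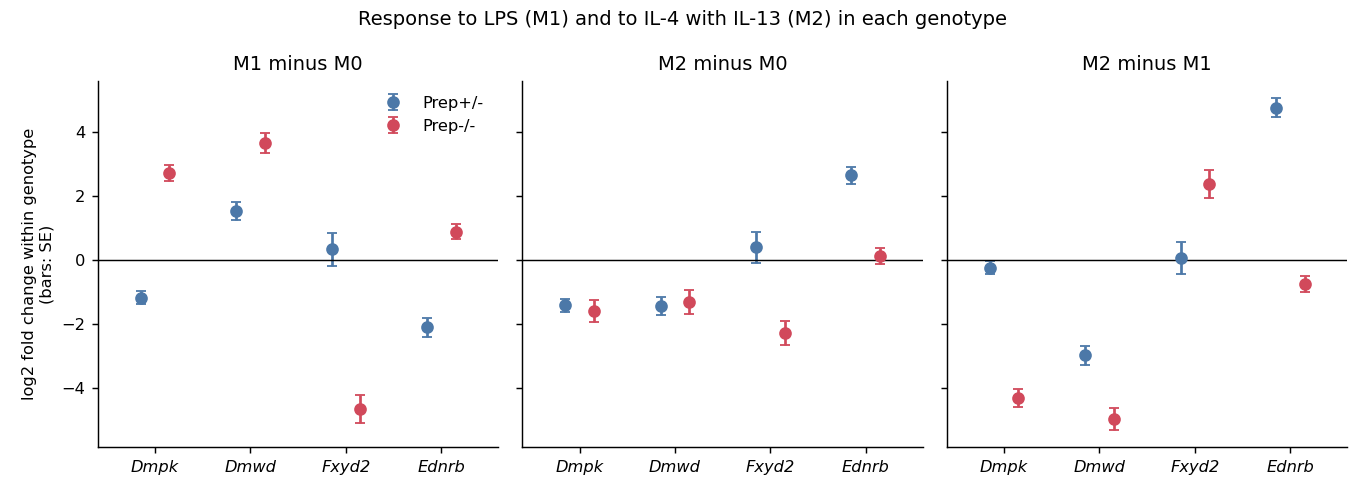
Points are the log2 change between states within Prep+/- (blue) and within Prep-/- (red) cells, with bars of 1 SE (3 libraries per group), for M1 minus M0, M2 minus M0 and M2 minus M1. Bex1 is left out because its M1 groups had 1 read each. Dmpk and Ednrb lie on opposite sides of 0 in the M1 panel, and Fxyd2 lies near 0 in blue and at -4.66 in red.

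The genes most like each of the 5 were ranked by Pearson correlation of log2 CPM over the 18 libraries, which share genotype and state. For Dmpk they were Raet1d (0.97), Cdkn2aipnl (0.94) and Raet1e (0.94), and Gm2a was the least like (-0.98). For Dmwd they were Slc7a8 (0.99), Dnmt3l (0.98) and Hdac9 (0.97), with Klhl9 at the other end (-0.98). For Fxyd2 they were Nudt7 (0.95), Thap4 (0.95) and Kxd1 (0.95), with Lrp8 lowest (-0.96), and for Bex1 Ffar4 (0.98), Slc27a6 (0.98) and Rbp4 (0.98), with Stk17b lowest (-0.98). Ednrb had the least close matches, Acss1 (0.92), Frmd4b (0.90) and Herpud2 (0.89), with Rassf6 lowest (-0.90). By Spearman correlation, 2 of the 3 genes were shared for Dmpk, 1 for Dmwd and 0 for Fxyd2, Bex1 and Ednrb. Among the 5 genes, Dmpk and Dmwd were the most alike (0.82), and Dmpk and Fxyd2 the most opposed (-0.80).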

How the data were processed

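RNA-seq of BMDMs from Prep+/- and Prep-/- mice in M0, M1 and M2 was analysed. The libraries were made with the TruSeq Stranded mRNA kit, and the authors trimmed reads with Trimmomatic 0.36, aligned them to GRCm39 with HISAT2 2.2.1.0 and counted them with stringtie2. The deposited values are raw counts per gene symbol. The annotation release and the strand setting of the counting are not given in the sources used here. Samples were grouped by the genotype and treatment labels, and 0 columns were left without a sample.

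Genes were filtered with edgeR's filterByExpr, scaled by TMM and fitted in R 4.3.3 with the quasi-likelihood test of edgeR 4.0.16 on all 18 libraries with 1 coefficient per group and Benjamini-Hochberg adjustment over 12021 genes. DEGs changed by more than 1.5-fold at an adjusted p below 0.05. Alternatives were DESeq2 1.42.0, DESeq2 size factors, other filters, a replicate block, only the libraries of the state, other windows, no fold criterion and each library left out. The scripts were tested on simulated data. The members and the lists of relatives and markers were chosen with earlier results of these data known. Named genes are the 5, Prep, DEGs among neighbours (200 kb) and relatives, neighbours within 50 kb, endothelin ligands and receptors, and the 3 most and 1 least correlated genes (log2 CPM, prior count 2). Slain1, Fxyd5, Ngfr, Gm68814, Gm71867, Ppm1n, single markers and the near copies of Bex1 were named after the values were seen. Some genes and motifs that the rule covers are not reported here.

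Of the symbols, 15667 matched GENCODE M39, used for positions. Transcript copies were sought with blastn 2.17.0. Counting intervals and the floor of 3 counts cover counting error only. Deviations of same-numbered libraries from their group means correlated for M1 against M0 within Prep-/- (0.201, 0.169 and 0.259) and between the genotypes in M2 (0.249, 0.255 and 0.462), so these were taken as paired, from the correlations alone. No pair of replicates agreed within sampling noise (lowest chi-square per degree of freedom, 9.26). Where animals behind replicates are not stated per library, p-values measure the spread between these samples.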

Additional observations from a re-analysis of the deposited data

Results flagged for a closer look

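For Ednrb the knockout change had opposite directions in different states, and no library of 1 genotype overlapped with the other. It was 1.83 in M0 and 4.82 in M1 against -0.69 in M2 (log2 fold change of Prep-/- over Prep+/-). The difference between states was not tested, since Ednrb was chosen on these values.

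Stimulation moved Dmpk and Ednrb in opposite directions in the genotypes, again without overlap. From M0 to M1, Dmpk changed by -1.18 in Prep+/- and by 2.72 in Prep-/- cells, and Ednrb by -2.11 and 0.88. From M1 to M2, Ednrb changed by 4.76 in Prep+/- and by -0.75 in Prep-/- cells. These differences were not tested for the same reason.

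Among neighbours, Pglyrp1 stood at 2.49 in M0 and -1.37 in M1, Vasp at 0.84 and -0.60, and Bex3 at -0.60 and 0.55, without overlap between the genotypes. The difference between these states passed edgeR's test for each (adjusted p = 0.00122, 0.000198 and 0.00704). These genes were tested because of their opposite directions, so that passing is no independent result. The share over all genes, which were not chosen in this way, was 24.6%. Groups of 3 libraries are too small for a test of single outlying samples.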

How the results depend on the processing

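Of the 15 pairs of member and state, 12 met the DEG rule under each alternative that kept all libraries, and 11 to 12 when 1 library was left out. The averaged stimulation effect had an adjusted p under 0.05 in all 5 genes for M1 minus M0 and M2 minus M1 under every alternative, and 4 to 5 did for M2 minus M0. None of the values computed for the members or for the called neighbours and relatives changed direction, apart from 2 knockout changes that met no rule, Bex1 in M0 (-0.16 to 0.48 with 1 library left out) and Fxyd2 in M1 (-0.02 to 0.47). Bex1 turned without replicate 3 of Prep-/- M0 and Fxyd2 without replicate 1 of Prep-/- M1. The number of neighbours called was 5 to 7 in M0, 1 to 7 in M1 and 3 to 6 in M2 when 1 library was left out, and that of relatives 6 to 9, 1 to 6 and 5 to 10. Relatives in M2 fell to 5 without replicate 1 of Prep-/- M2. A window of 50 kb gave 2, 1 and 2 neighbours and a window of 500 kb 10, 9 and 7. Only the 6 libraries of the state gave 8 neighbours in M1. The replicate block gave 3 neighbours in M2, moved the count over all genes from 1947 to 1889 and changed no call of a named gene in M2 other than those of Mypop and Il10ra. In the M0 and M1 knockout comparisons the numbers were not taken as pairing the libraries. There the block ended the call of Pglyrp1 in M1 and 1 call among the relatives in M0. The block changed no side of the threshold of the averaged stimulation effects. Without the fold criterion there were 18 relatives in M0 and 10 in M1. The cause of these shifts was not tested, except that a smaller window or fewer libraries hold less. Of 384 values for called neighbours, 46 missed the threshold, as did 45 of 528 for relatives, with the same direction. Depth limits Bex1 in M0 and M1, with 1 to 10 reads per group.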
